A study of Mus musculus with 6 samples.

Results

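The genes described here are the Wnt ligands, their receptors and their modulators: 60 genes, taken by symbol from the 55291 symbols counted in every library. They were chosen by name alone: every Wnt and Frizzled (Fzd) gene, Lrp5 and Lrp6, the R-spondins and their Lgr receptors, the secreted inhibitors of the Dkk, Sfrp, Wif and Notum types, the ligases Znrf3 and Rnf43, Porcn and Wls, beta-catenin (Ctnnb1), the Tcf/Lef factors, and the feedback genes Axin2, Nkd1 and Nkd2. The members fall into 6 roles, with 19 ligands, 2 genes for making and exporting ligands, 12 Frizzled receptors and Lrp co-receptors, 9 genes of the R-spondin arm, 10 secreted inhibitors and 8 genes of beta-catenin and its readout.

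RNA-seq was done on 6 libraries of sorted mammary gland cells from 6-week-old, pubertal mice, with 5 mice pooled for each library. All groups shared the genotype Adgra3-lz/+, in which beta-galactosidase is joined to a shortened Gpr125, the orphan adhesion receptor encoded by Adgra3, so that each mouse carried a single intact copy of the gene. Cells were sorted for high CD49f, an integrin of basal mammary cells, after cells bearing CD31, CD45 or Ter119 (markers of endothelium, leukocytes and red cells) had been removed, and FDG, a fluorescent substrate of the reporter enzyme, divided them into Gpr125+ and Gpr125-negative cells. The paper's methods also list an antibody to CD140a, a fibroblast marker, beside those to CD31, CD45 and Ter119. Gpr125+ cells came from the part of the gland distal to the lymph node, which holds the terminal end buds (TEB), in 2 libraries and from the nipple-proximal part in 2 libraries. The other 2 carry the label Gpr125-negative with no region named, and are called negative-labelled below.

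Wnt proteins are secreted, lipid-bearing ligands. Porcn adds the lipid, Wls carries the ligand to the cell surface, and Frizzled receptors bind it together with Lrp5 or Lrp6. In the canonical branch the signal stops the destruction of beta-catenin, which then joins Tcf/Lef factors on target genes such as Axin2. R-spondins bind Lgr4, Lgr5 or Lgr6 and hold back Znrf3 and Rnf43, ligases that remove Frizzled from the surface. In the mammary gland, Wnt signals act in duct growth and in the upkeep of basal stem cells.

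Total counts were 20134890 to 37296640 per library, and 3 counts, the smallest level taken as shown, came to 0.0644 to 0.147 CPM. CPM is the count scaled to a common library total after TMM normalization, which corrects the totals for differences in composition. The 60 members took 0.113% to 0.147% of the counts. Adgra3 itself had 1658 and 550 counts in the negative-labelled libraries, 385 and 142 in the TEB-distal pair and 391 and 262 in the nipple-proximal pair, so its transcript did not follow the labels of the sort, although neither difference passed the test (log2 -1.45, SE 0.92, and -0.78, SE 0.90). The sort read the activity of the reporter enzyme, and the counts cannot separate the intact allele from the fused one. Basal keratins and Acta2 were counted in every library, with 12 basal markers summing to 3393 to 23031 CPM. Luminal markers, 14 in the list, summed to 1471 to 3108 CPM, with Krt8, Krt18 and Epcam in all 6 libraries. TEB-distal library 1 stood apart in 2 of them, with 116 CPM of Prlr and 31.9 CPM of Esr1 against at most 16.5 and 3.15 CPM in the other libraries. A list of 12 endothelial markers summed to 1291 and 814 CPM in the negative-labelled libraries, against 16.9 and 18.7 in the TEB-distal pair and 228 and 22.3 in the nipple-proximal pair; all 12 had a fold change below 0 in TEB-distal against negative-labelled libraries on the log2 scale. Fabp4 was 672 and 631 CPM in the negative-labelled libraries and at most 23.5 CPM elsewhere, while the defining adipocyte genes Adipoq and Plin1 were at or near 0 in all 6. A list of 10 fibroblast markers summed to 47.55 and 154 CPM in the negative-labelled libraries, 123 and 268 in the TEB-distal pair and 82.3 and 62.4 in the nipple-proximal pair.

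**Figure D1:**
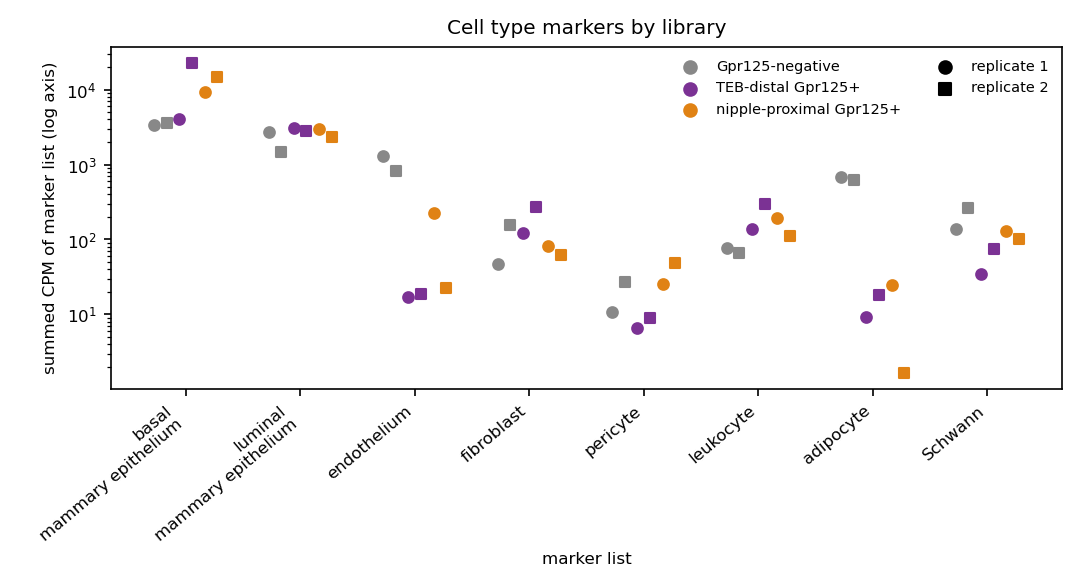
Summed level of each marker list in CPM (log axis) by cell type; grey points are negative-labelled, purple TEB-distal and orange nipple-proximal libraries, with circles for replicate 1 and squares for replicate 2. Endothelial markers summed to 814 CPM or more in both negative-labelled libraries and to 228 CPM or less in the other 4, and basal markers were at 23031 CPM in TEB-distal library 2.

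Of the 60 members, 47 had at least 10 counts in at least 1 library and 29 had at least 10 in all 6. Another 8 had no count in any library, which allows each at most the CPM that 3 counts represent: the ligands Wnt2, Wnt3, Wnt3a, Wnt7a, Wnt8b and Wnt16, the R-spondin Rspo4 and the inhibitor Dkk4. A further 5 members had some counts but never more than 9. Among the members with at least 10 counts somewhere, 6 of 47 (12.8%) reached that number in a single library, namely Lef1, Notum, Rspo2, Sfrp5, Wnt1 and Wnt9b, against 4117 of 21463 genes (19.2%) across the whole table. All 12 Frizzled and Lrp genes reached 10 counts somewhere, but only 11 of 19 ligands did.

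**Figure D2:**
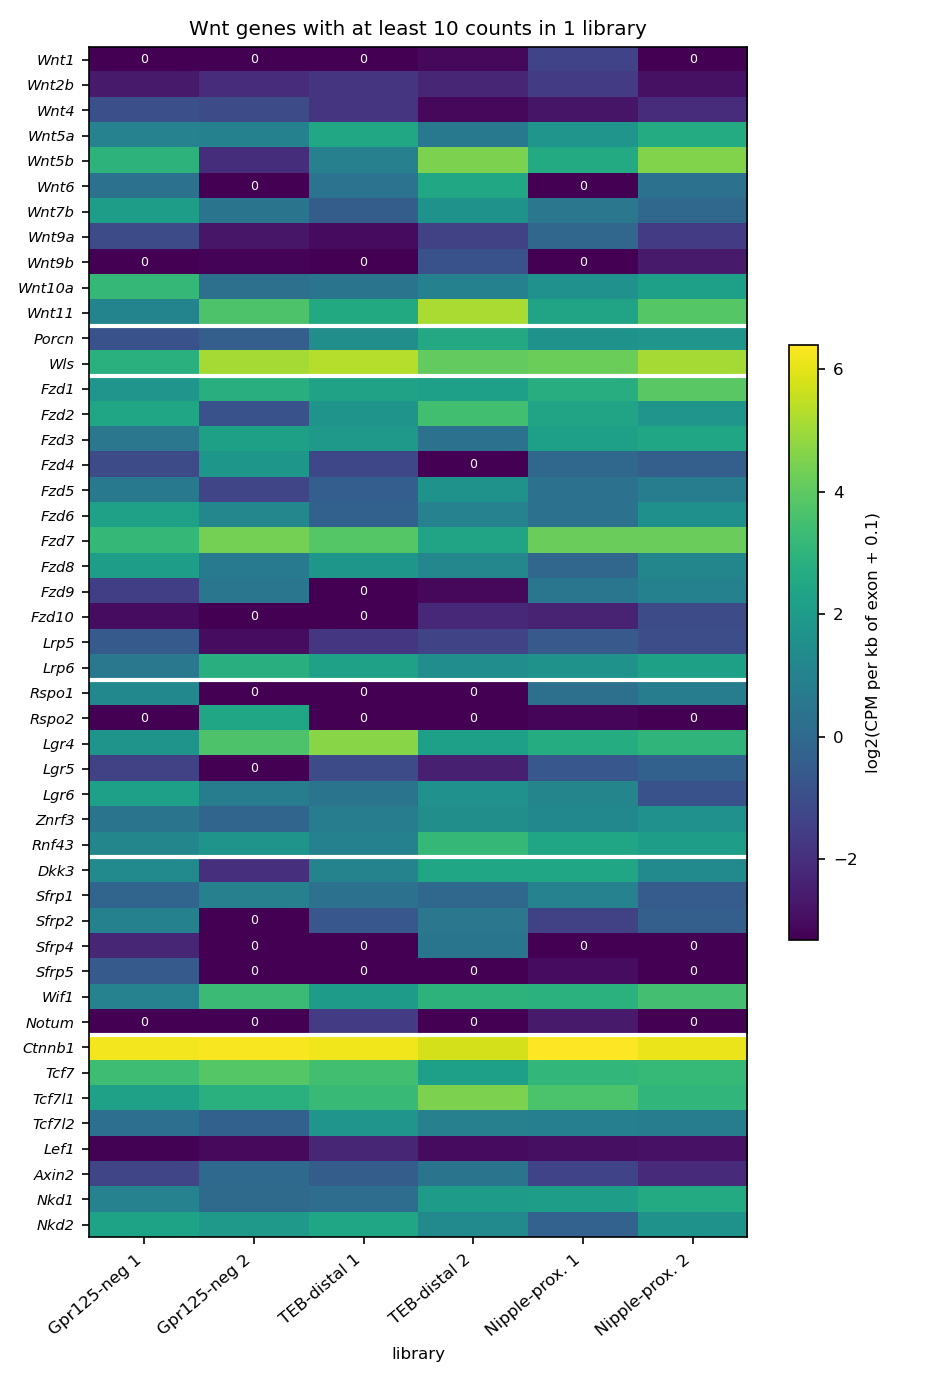
Level of the 47 members with at least 10 counts in a library, as log2 of CPM per kilobase of exon plus 0.1, with genes in rows, the 6 libraries in columns, a 0 where no read was counted, and white lines between roles. Ctnnb1 and Wls were high in every library, while Rspo2 was bright in negative-labelled library 2 alone.

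Replicate libraries of a group differed widely for these genes. Over the 29 members counted in all libraries, the median ratio between replicates was 2.68-fold in the negative-labelled libraries, 2.40-fold in the TEB-distal pair and 1.54-fold in the nipple-proximal pair, beside 2.49-fold, 2.00-fold and 1.39-fold for the 10366 genes with at least 10 counts in all 6 libraries. Wnt5b had the largest ratio in the first 2 groups, 55.3-fold and 12.4-fold. P-values below measure the spread between these libraries, each a pool of mice. The p-values of all tested members came from edgeR's quasi-likelihood test across 17268 genes with Benjamini-Hochberg adjustment, and a gene was called at an FDR under 0.1 with a change of at least 2-fold. Of the members, 41 passed the filter on low counts and were tested, and 19 were not.

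By that rule 0 members were called in each of the 3 comparisons, where the share of all genes called was also 0%. At an unadjusted p under 0.05, 3 of 41 members stood out in TEB-distal against negative-labelled libraries, where 6.05% of all genes did. Porcn was the 1 member higher (3.8% of all genes) and Fzd9 and Rspo1 were the 2 lower (2.25%). For nipple-proximal against negative-labelled libraries the count was 0 of 41, against 2.62% of all genes higher and 0.927% lower, 3.55% in all. For TEB-distal against nipple-proximal libraries it was 2 of 41 (Fzd9 and Rspo1, both lower, against 1.46% of all genes lower), with 0 members higher against 0.747%, and 2.21% of all genes in either direction. The smallest FDR of any member was 0.803, then 1, then 1, in this order of comparisons. DESeq2 on all 6 libraries, with the same thresholds, called 4 members (Porcn, Fzd9, Rspo1 and Rspo2) among 943 genes (3.22%) in the first comparison, 0 members among 321 genes (1.1%) in the second and 1 member (Fzd9) among 133 genes (0.454%) in the third. DESeq2 on only the 4 libraries compared called 1 member (Rspo2) among 682 genes (2.51%), 1 (Rspo2) among 317 (1.16%) and 2 (Fzd9 and Rspo1) among 357 (1.3%). Without the filter on low counts, edgeR called 1 member (Rspo2) among 137 genes (0.468%), 0 among 58 (0.198%) and 0 among 39 (0.133%).

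Counting members whose groups did not overlap gave a share near the background in each comparison. In TEB-distal against negative-labelled libraries 5 members were higher (Porcn, Tcf7l1, Tcf7l2, Wnt6 and Znrf3, against 14% of all genes tested) and 5 lower (Ctnnb1, Fzd4, Fzd6, Fzd9 and Wnt4, against 10%), together 24.4% of the 41 against 24%. In nipple-proximal against negative-labelled libraries 10 were higher (19.9% of all genes) and 4 lower (10.8%), together 34.1% against 30.6%. In TEB-distal against nipple-proximal libraries 4 were higher (15.2%) and 10 lower (18.3%), together 34.1% against 33.5%. The median log2 fold change over the tested members was 0.03, 0.40 and -0.06 in these comparisons, where the medians of all genes were 0.03, -0.003 and 0.06. The first 2 comparisons share the negative-labelled libraries.

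Among the ligands, Wnt11 or Wnt5b had the highest level in 5 of 6 libraries; both were named for this after their levels had been seen. Both are known for signalling largely apart from beta-catenin. On the scale of CPM per kilobase of exon, which allows genes to be compared, Wnt11 was at 2.01 and 12.7 in the negative-labelled libraries, 5.88 and 36.2 in the TEB-distal pair and 5.09 and 14.4 in the nipple-proximal pair. Wnt5b was at 7.77 and 0.140, then 1.78 and 22.0, then 6.00 and 23.8. The exception was negative-labelled library 1, where Wnt10a held 32.8% of the summed ligand level and Wnt5b 29.2%. Wnt11 held 72.4% in negative-labelled library 2, where Wnt5b had only 11 counts, and 35.0% and 50.8% in the TEB-distal libraries. Wnt5b led in both nipple-proximal libraries, with 30.0% and 46.5%.

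The summed ligand level was 26.6 and 17.6 in the negative-labelled libraries, 16.8 and 71.2 in the TEB-distal pair, and 20.0 and 51.2 in the nipple-proximal pair, in CPM per kilobase. Replicates of both Gpr125+ groups differed more than the groups did. The summed basal markers were 3393 and 3554, 4017 and 23031, and 9449 and 14952 CPM in the same order, so the higher ligand sum of each Gpr125+ pair stood in the library with the higher basal sum, and their part in the ligand level was not tested. In libraries of pooled cells, fewer cells of a type and less RNA per cell cannot be told apart.

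**Figure D3:**
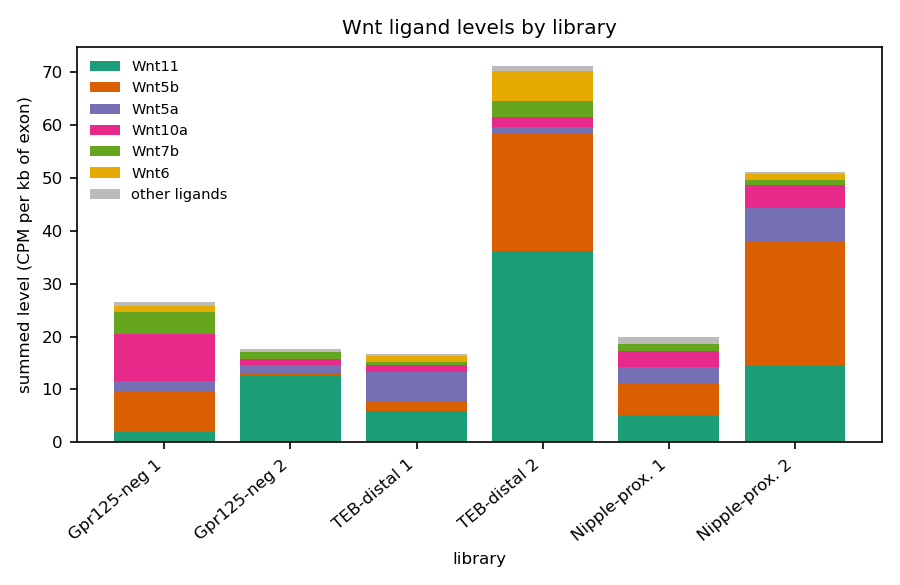
Summed Wnt ligand level of each library in CPM per kilobase of exon, with 1 bar per library starting at 0 and colours for the 6 leading ligands and the rest. The sums were 71.2 in TEB-distal library 2 and 51.2 in nipple-proximal library 2, with Wnt11 and Wnt5b as the main parts of each, and 16.8 to 26.6 in the other 4 libraries.

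Promoter windows of members are printed where they held a Tcf-type motif, which was at Wnt5b and Wnt11. The window of Axin2, the feedback gene most used as a readout of canonical signalling, is printed whether or not it held the motif. The 250 bases before the annotated start were searched for CTTTGAT and, on the other strand, ATCAAAG; 1053 of 32851 windows in the RefSeq table (GRCm38.p6) held it, 3.21%. Of the members, 40 of 60 had a window, and 2 of their 50 windows held the motif, those of Wnt5b and Wnt11. This was 4% of member windows, near the share of all windows. The other windows of Wnt5b and Wnt11 held no match and are not printed. Each sequence below runs 5′ to 3′ on the gene's strand, with the motif in capitals; it begins 71 bases before the start at Wnt5b, in 1 of 3 windows of that gene (chr6:119449387-119449636, minus strand), and 51 bases before it at Wnt11, on the opposite strand (chr7:98834862-98835111, plus strand, 1 of 2 windows). The Axin2 window (chr11:108920099-108920348, plus strand) held no match. The counts do not tell which start was used, and a match of letters is not a bound site. Only this exact motif in these 250 bases was searched, so a missing match does not show that a gene lacks Tcf sites.
Wnt5b: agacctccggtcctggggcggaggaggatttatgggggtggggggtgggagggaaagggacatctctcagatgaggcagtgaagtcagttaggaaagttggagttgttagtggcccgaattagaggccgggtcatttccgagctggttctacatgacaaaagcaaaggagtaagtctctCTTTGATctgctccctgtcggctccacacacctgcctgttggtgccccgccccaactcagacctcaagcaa
Wnt11: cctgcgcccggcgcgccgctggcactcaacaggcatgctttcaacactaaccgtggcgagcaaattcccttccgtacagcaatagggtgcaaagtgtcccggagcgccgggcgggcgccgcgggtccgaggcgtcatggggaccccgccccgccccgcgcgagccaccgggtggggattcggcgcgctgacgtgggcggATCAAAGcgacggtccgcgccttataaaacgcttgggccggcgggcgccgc
Axin2: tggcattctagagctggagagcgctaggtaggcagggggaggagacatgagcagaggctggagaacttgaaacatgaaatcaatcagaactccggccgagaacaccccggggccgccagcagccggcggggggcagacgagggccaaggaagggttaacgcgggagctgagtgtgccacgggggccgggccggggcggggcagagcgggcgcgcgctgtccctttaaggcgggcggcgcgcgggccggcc

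Among the other ligands, Wnt5a, which acts largely through Ror and Frizzled receptors outside the canonical branch, was at 14.9 and 14.2 CPM in the negative-labelled libraries, 44.3 and 11.3 in TEB-distal and 25.2 and 48.3 in nipple-proximal libraries. Both nipple-proximal values lay above both negative-labelled ones, a log2 fold change of 1.34 (SE 0.87, unadjusted p = 0.165), whereas the TEB-distal values lay on either side. Wnt4, a ligand induced by progesterone in luminal cells, had 82 and 45 counts in the negative-labelled libraries, 19 and 2 in TEB-distal and 4 and 12 in nipple-proximal libraries. It was low in both Gpr125+ groups without overlap, with log2 differences of -2.02 (SE 1.91) and -2.10 (SE 1.92), neither past the test (unadjusted p = 0.321 and 0.306). The first was -4.52 without TEB-distal library 1 and -1.15 without TEB-distal library 2, and the second ran from -3.02 to -1.53 when each library was left out, the former without nipple-proximal library 2. The endothelial marker sum was likewise higher in the negative-labelled libraries, and its part in this was not tested.

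Wnt6 had 119 and 0 counts in the negative-labelled libraries, 68 and 362 in the TEB-distal pair and 0 and 53 in the nipple-proximal pair. Scaled to CPM, both TEB-distal values (2.65 and 12.3) exceeded all 4 others, the next being 2.56, but the fitted log2 differences of 2.54 (SE 2.74) and 2.58 (SE 2.75) were no larger than their errors. Both rest on few libraries: without TEB-distal library 2 they were 1.04 and 1.07, without negative-labelled library 2 the first was 1.54, without nipple-proximal library 1 the second was 1.57, and without negative-labelled library 1 or nipple-proximal library 2 the library left in that group held no count. The gene shares part of its span with another annotated gene, and reads were counted without strand. Wnt10a, a ligand of the canonical branch, was at 21.5 and 2.74 CPM, then 3.04 and 4.53, then 7.22 and 10.8; the nipple-proximal libraries lay above the TEB-distal ones (log2 difference of TEB-distal against nipple-proximal -1.25, SE 1.27), and negative-labelled library 1 lay above all. Wnt7b ranged from 3.08 to 20.4 CPM with all groups overlapping. Of the Wnt9b counts 59 of 66 were in TEB-distal library 2, and of the Wnt1 counts 14 of 15 in nipple-proximal library 1, whereas Wnt2b (3 to 20 counts) and Wnt9a (2 to 58) were low in all 6 libraries.

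Porcn, the acyltransferase that lipidates Wnt ligands (chromosome X, 8193848 to 8206525 on GRCm38), was higher in each of the 4 Gpr125+ libraries than in either negative-labelled library. Its counts were 62 and 59 in the negative-labelled libraries, 206 and 513 in TEB-distal and 187 and 206 in nipple-proximal libraries, or 1.33 and 2.00, 8.03 and 17.5, and 9.18 and 9.70 CPM. The lowest Gpr125+ value, 8.03 CPM, was above the higher of the others, 2.00 CPM. The log2 fold change was 2.93 (SE 1.17, unadjusted p = 0.0368, FDR 0.803) for TEB-distal cells and 2.5 (SE 1.15, unadjusted p = 0.0618, FDR 1) for nipple-proximal cells, and it stayed between 2.26 and 3.37 and between 2.10 and 2.82 when each library was left out in turn. DESeq2 gave the TEB-distal difference an FDR of 0.0386 on 6 libraries and 0.279 on 4. With edgeR on only the 4 libraries compared its unadjusted p was 0.127, and with the replicate number as a block 0.0657. Between the Gpr125+ groups the log2 difference was 0.43 (SE 1.09). The endothelial marker sum differed between the same groups in the opposite direction. The basal marker sum differed in the same direction as Porcn (3393 and 3554, 4017 and 23031, and 9449 and 14952 CPM), and TEB-distal library 2 had both the highest Porcn level and the highest basal sum. The part of either list was not tested.

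Wls, the carrier that takes lipidated Wnt proteins to the surface, had no such split. It was at 62.3 and 299 CPM in the negative-labelled libraries, 352 and 147 in TEB-distal and 161 and 301 in nipple-proximal libraries, with overlap in all comparisons and log2 differences of 0.47 (SE 0.92), 0.36 (SE 0.92) and 0.11 (SE 0.92). The gene's span overlaps others in the annotation.

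**Figure D4:**
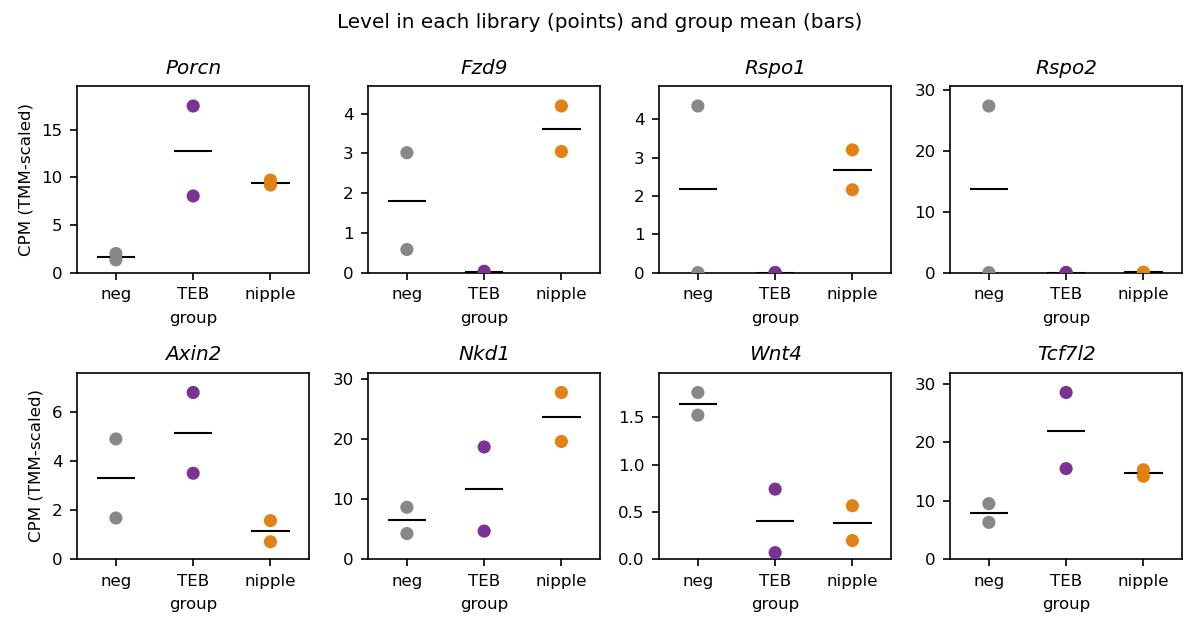
TMM-scaled CPM of 8 members in each library (points), with the group mean as a bar and every axis starting at 0; neg stands for negative-labelled, TEB for TEB-distal and nipple for nipple-proximal libraries. The 4 Gpr125+ points of Porcn lie above both negative-labelled points, Fzd9 and Rspo1 are at or near 0 in both TEB-distal libraries, and Rspo2 has a single high point of 27.3 CPM.

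Among the receptors, Fzd7 led the Frizzled genes per kilobase in 5 of 6 libraries, with 29.5% to 50.1% of their summed level there, and Fzd2 led in TEB-distal library 2 with 38.0%. Fzd7 was at 8.78 and 20.8, 14.1 and 4.98, and 18.2 and 17.9 CPM per kilobase in the order of the groups above, and both TEB-distal values were below both nipple-proximal ones (log2 difference -0.92, SE 0.77). The same was true of Fzd1 (-1.24, SE 0.78) and Fzd3 (unadjusted p = 0.277). Fzd8 went the other way without overlap, at 20.7 and 12.9 CPM in TEB-distal against 4.96 and 12.6 CPM in nipple-proximal libraries (0.94, SE 0.97). Over the 12 Frizzled and Lrp genes, 9 had a fold change below 0 for TEB-distal against nipple-proximal cells, with a median of -0.94 on the log2 scale beside 0.06 for all genes tested, and 1 of the 12, Fzd9, was under an unadjusted p of 0.05. For nipple-proximal against negative-labelled libraries, 8 of 12 were above 0, with a median of 0.60.

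Fzd9 (chromosome 5, 135248938 to 135251230), one of the Frizzled receptors, had 27 and 89 counts in the negative-labelled libraries, 0 and 1 in the TEB-distal pair and 62 and 89 in the nipple-proximal pair. It was thus almost absent from both TEB-distal libraries and counted in the other 4. The ratio of pooled counts, scaled for library size, was 84.0 for negative-labelled over TEB-distal libraries (exact 95% interval 14.8 to 3345, counting error only) and 199.7 for nipple-proximal over TEB-distal libraries (35.3 to 7939). The unadjusted p was 0.0239 and 0.0148, with FDRs of 0.803 and 1. DESeq2 gave the latter comparison an FDR of 0.0314 on 6 libraries and 0.0138 on 4, and the former 0.0258 and 0.136. The endothelial marker sum was also lowest in the TEB-distal libraries, at 16.9 and 18.7 CPM, with 22.3 CPM in nipple-proximal library 2, and its part was not tested.

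Fzd4, a receptor that endothelial cells use for Norrin as well as Wnts, had 114 and 681 counts in the negative-labelled libraries, 57 and 0 in the TEB-distal pair and 115 and 96 in the nipple-proximal pair. Both TEB-distal values, 2.22 and 0 CPM, lay below the rest, but negative-labelled library 1 was just above at 2.45 CPM. The log2 difference was -3.52 (SE 2.21, unadjusted p = 0.151) against the negative-labelled libraries and -2.19 (SE 2.09) against nipple-proximal libraries. Without TEB-distal library 2, which had no count, these were -2.52 and -1.21, and without negative-labelled library 2 the first was -1.15. The endothelial list stood in the same order of groups, but not of libraries. Its sum was 1291 CPM in negative-labelled library 1 and 814 CPM in library 2, where Fzd4 was at 2.45 and 23.1 CPM. The part of the endothelial list was not tested. Fzd10 was low throughout, with 4 and 0, 0 and 11, and 6 and 26 counts. Its nipple-proximal values were above both negative-labelled ones (log2 difference 3.95, SE 2.64, unadjusted p = 0.175), and without negative-labelled library 1 the other library of that group held no count.

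Of the Lrp co-receptors, which pair with Frizzled, Lrp6 was at 1.40 to 6.97 CPM per kilobase and Lrp5 at 0.0243 to 0.574, with Lrp6 the higher in every library. Their log2 differences between groups ran from -0.96 to 0.67 with errors of 0.85 to 1.73.

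In the R-spondin arm the secreted agonists were present or absent by library. Rspo1 (chromosome 4, 124986430 to 125009099) had 202 and 0 counts in the negative-labelled libraries, 0 and 0 in the TEB-distal pair and 44 and 68 in the nipple-proximal pair. No read was counted in either TEB-distal library, so that the nipple-proximal mean was at least 24.5-fold higher, taking 3 counts per library as the floor. The same bound against the negative-labelled libraries was 19.8-fold, but it rested on negative-labelled library 1, and without that library neither group held a count. The unadjusted p was 0.0415 and 0.0451, with FDRs of 1 and 0.815. DESeq2 gave FDRs of 0.173 on 6 and 0.0104 on 4 libraries for nipple-proximal cells, and 0.0620 and 0.166 for the other comparison.

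Rspo2 came almost wholly from 1 library. Its 806 reads in negative-labelled library 2 (27.3 CPM) stood against 0 in negative-labelled library 1, 0 in each TEB-distal library, and counts of 1 and 0 in the nipple-proximal pair. The filter left it untested in edgeR, and the DESeq2 calls of Rspo2 given above rest on this library; no other library in the group repeats it. Each negative-labelled library therefore held an R-spondin that its replicate lacked. Rspo3 had at most 2 counts in any library.

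Of the R-spondin receptors, Lgr4 was the most abundant per kilobase in 5 of 6 libraries and Lgr6 in the other. Lgr4 was at 18.6 and 75.6 CPM, 152 and 26.2, and 37.3 and 48.1, with all groups overlapping. Lgr5, which marks stem cells in several epithelia, had 126 and 0, 97 and 24, and 110 and 154 counts. Its nipple-proximal libraries were the highest (5.40 and 7.25 CPM, against 0.817 and 3.78 in TEB-distal and 2.71 and 0 in negative-labelled libraries), with log2 differences of 2.21 (SE 2.24) against negative-labelled libraries and, for TEB-distal against nipple-proximal, -1.46 (SE 2.19). The first of these was 1.23 without negative-labelled library 2, and without negative-labelled library 1 the remaining library of that group held no count. The ligase Znrf3, also a target gene, was at 9.77 and 6.27 CPM in the negative-labelled libraries and at 12.9 to 22.9 CPM in the 4 Gpr125+ libraries, without overlap. Its log2 differences of 1.10 (SE 0.85) and 1.33 (SE 0.85) did not pass the test, and the first was 0.68 without TEB-distal library 2. Rnf43, its close relative, was above the negative-labelled libraries only in the nipple-proximal ones (33.6 and 27.4 against 13.9 and 20.7 CPM), and its TEB-distal values of 12.2 and 57.8 spanned both.

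The secreted inhibitors that were counted in all libraries were Wif1, Sfrp1 and Dkk3. Wif1, which binds Wnt ligands, was at 4.60 to 27.2 CPM and Sfrp1, a decoy that resembles the Frizzled ligand-binding part, at 2.64 to 8.15 CPM, each with overlap in every comparison. Dkk3, a divergent Dickkopf, was at 8.15 and 0.508, 6.51 and 17.9, and 17.4 and 7.91 CPM. The Dickkopf genes that block Lrp co-receptors were close to absent, with Dkk1 and Dkk2 at no more than 2 counts in any library and Dkk4 at 0. Sfrp2 ran from 0 to 185 counts. Sfrp4 had 157 of its 178 counts in TEB-distal library 2 and 21 in negative-labelled library 1, Sfrp5 had 51 of its 52 in the latter, and Notum, which removes the lipid from Wnts, had 14 of 17 in TEB-distal library 1. The fibroblast marker sum was highest, at 268 CPM, in TEB-distal library 2, and its part in Sfrp4 was not tested. Of the 5 inhibitors tested, none was under an unadjusted p of 0.05 in any comparison.

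Among the genes of beta-catenin and its readout, Ctnnb1 varied least across libraries, with 1.56-fold between its highest and lowest level, beside at least 3.09-fold for every other member counted in all 6. It was at 387 and 414 CPM in the negative-labelled libraries, 380 and 281 in the TEB-distal pair and 440 and 358 in the nipple-proximal pair, with log2 differences of -0.28, -0.01 and -0.27 (each SE 0.66). Tcf7, the factor also known as TCF1, was at 27.2 and 37.4, 29.0 and 11.4, and 22.3 and 24.0 CPM. Tcf7l1, which often acts as a repressor of target genes, was at 18.3 and 27.9, then 37.0 and 87.8, then 49.0 and 32.6 CPM, so all 4 Gpr125+ libraries were above both others (log2 differences 1.44, SE 0.73, unadjusted p = 0.0840, and 0.82, SE 0.72). The first was 0.68 without TEB-distal library 2, the library with the basal marker sum of 23031 CPM. Basal marker sums were also higher in the 4 Gpr125+ libraries, with median log2 differences over the 12 markers of 2.55 and 1.91. Not every marker followed the sum, Trp63 being at 6.47 CPM in TEB-distal library 2. The part of the basal markers was not tested. Tcf7l2 also had both negative-labelled values lowest, with 9.51 and 6.30 CPM in the negative-labelled libraries and 14.2 to 28.6 CPM in the other 4 (log2 differences 1.48, SE 0.86, and 0.90, SE 0.85), and the first was 0.97 without TEB-distal library 1. Per kilobase, Tcf7 was the highest of the Tcf/Lef genes in 4 libraries and Tcf7l1 in TEB-distal library 2 and nipple-proximal library 1. Lef1 had only 2 to 24 counts.

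The feedback genes, which the pathway itself induces, gave no common order of groups. Axin2 had 78 and 145, 90 and 200, and 32 and 15 counts, or 1.68 and 4.91, 3.51 and 6.81, and 1.57 and 0.706 CPM. The nipple-proximal libraries were the lowest, and both TEB-distal values were above them, a log2 difference of 2.18 (SE 1.57, unadjusted p = 0.203) that stayed between 1.60 and 2.86 when each library was left out. Nkd1, an inducible antagonist that binds Dishevelled, was instead highest in the nipple-proximal libraries, with 8.65 and 4.27, 4.68 and 18.7, and 19.6 and 27.8 CPM, a log2 difference of 1.88 (SE 1.02, unadjusted p = 0.105) for nipple-proximal against negative-labelled libraries and -1.02 (SE 1.00) for TEB-distal against nipple-proximal libraries. Nkd2 was at 23.5 and 18.2, 25.3 and 11.4, and 3.49 and 15.1 CPM, lowest in nipple-proximal library 1. Axin2 and Nkd1, both targets of beta-catenin, lay in opposite directions between the Gpr125+ groups, with neither difference past the test.

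**Figure D5:**
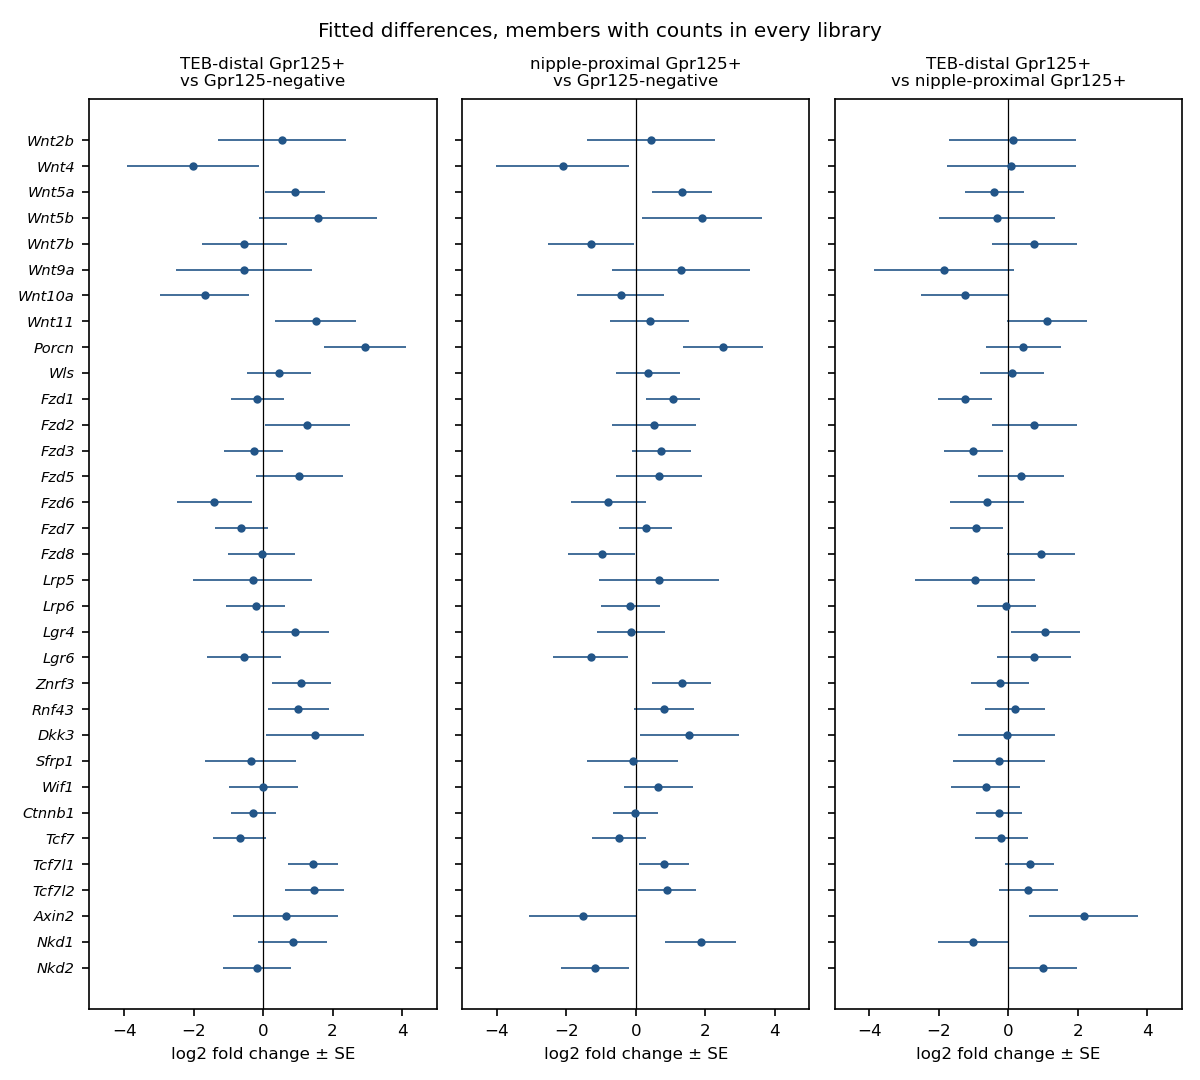
Fitted log2 fold change with its standard error for the 33 tested members that had counts in every library, in rows by role, in the 3 comparisons. Of these, Porcn was the farthest from 0 against the negative-labelled libraries, at 2.93 for TEB-distal cells, and Axin2 in TEB-distal against nipple-proximal cells, at 2.18.

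A list of 75 other genes of the pathway, 70 of them tested, was set beside the members. None was called by edgeR in any comparison. At an unadjusted p under 0.05, 4 of 70 were higher and 1 lower in TEB-distal against negative-labelled libraries (3.8% and 2.25% of all genes), 1 was higher in nipple-proximal against negative-labelled libraries (2.62%), and 2 were higher in TEB-distal against nipple-proximal libraries (0.747%). Cxxc4, which binds Dishevelled and curbs the signal, had 114 and 49 counts in the TEB-distal pair and 0 in the other 4. Apcdd1, a membrane inhibitor, had 0 and 0 counts in the negative-labelled libraries, 1 and 57 in TEB-distal and 52 and 30 in nipple-proximal libraries. Tnfrsf19, a target gene for a receptor of the tumour necrosis factor family, had 66 and 0, 980 and 500, and 80 and 42 counts, and Prom1, a membrane glycoprotein, had 159 and 33, 1189 and 171, and 122 and 43. Prom1 was at 46.4 CPM in TEB-distal library 1, which also stood apart in Prlr and Esr1, and at 5.82 CPM in TEB-distal library 2. The part of luminal cells in this was not tested. Ror2, a receptor for Wnt5a, had 212 and 237, 275 and 564, and 43 and 21 counts, a log2 difference of 3.27 (SE 1.24, unadjusted p = 0.0298) between TEB-distal and nipple-proximal cells. The fibroblast marker sum was also higher in the TEB-distal pair, at 123 and 268 CPM against 82.3 and 62.4 CPM. Over its 9 tested markers the median log2 difference between these groups was 2.61, with 8 above 0. The part of fibroblasts in Ror2 was not tested. Procr, a target gene that marks a basal stem cell population and is also made by endothelium, was at 2471 and 1932 CPM in the negative-labelled libraries and 474 to 957 CPM in the others, and the endothelial marker sum, whose part was not tested, was higher in the same libraries.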

How the data were processed

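The authors sequenced SMART-Seq libraries, aligned reads to mm10 with STAR (version 2.7.3 in the submitters' processing notes), counted them per gene with HTSeq without strand, and deposited raw read counts for each of 6 libraries, not normalized. Counts that cannot be split between overlapping genes may be lost, and 25 of 60 members overlap another gene span. Among them are Wnt5a, Wnt5b, Wnt6, Wnt11, Wls, Rspo1, Lgr5, Rnf43, Ctnnb1, Tcf7, Tcf7l1, Tcf7l2, Axin2, Nkd1 and Nkd2. Tcf7l1 had the most, with 6 overlapping genes, 3 of them on its own strand. The counts of all these members may be less certain, but only whole gene spans were compared, and overlap of exons was not examined. Symbols were matched to GENCODE M21 (96.4% found; all members). The annotation release used for counting is not given in the sources used here. No other files were used.

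The tests were run with edgeR 4.0.16 in R 4.3.3, using TMM scaling, filterByExpr by group (17268 genes kept), robust glmQLFit and glmQLFTest on all 6 libraries, without a block. Standard errors came from the F statistic. CPM per kilobase used union exon length. DESeq2 1.42.0, its size factors, no filter, 4 libraries per comparison, a replicate block, leaving out each library and, chosen after seeing the data, longest transcript lengths were alternatives. Scripts were tested on simulated counts. Python 3.11.15 was used for tables. An exact permutation test of 2 against 2 libraries cannot go below p = 0.333 (two-sided) and was not used. Floors and intervals cover counting error only, since the libraries hold no molecular identifiers. No replicate pair held identical counts.

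Members, lists and tests were chosen with earlier results of these data known. Members were named one by one where edgeR's unadjusted p was under 0.05, where groups did not overlap with a log2 difference of at least 2, or where they were one of 12 genes listed by name: Wnt4, Wnt5a, Wnt6, Wnt10a, Rspo1, Lgr5, Tcf7, Axin2, Ctnnb1, Lrp5, Lrp6 and Wls. Other members with values in the text were named after their values were seen.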

Additional observations from a re-analysis of the deposited data

How the results depend on the processing

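Results are given for TEB-distal against Gpr125-negative, nipple-proximal against Gpr125-negative and TEB-distal against nipple-proximal libraries in that order. The count of genes called, 0 in each, was 137, 58 and 39 without the filter on low counts, 943, 321 and 133 with DESeq2 on 6 libraries, and 682, 317 and 357 with DESeq2 on 4. The count of members called was 1, 0 and 0 without the filter, 4, 0 and 1 with DESeq2 on 6 libraries, and 1, 1 and 2 on 4. The count of members at an unadjusted p under 0.05, which was 3, 0 and 2, became 5, 1 and 5 with DESeq2 on 6 libraries, 4, 2 and 4 on 4, 4, 1 and 3 without the filter, and 0 in the first comparison with edgeR on 4 libraries. Leaving out 1 library at a time gave 0 to 747, 0 to 335 and 0 to 12 genes called, 0 to 1, 0 to 1 and 0 members called, and 1 to 9, 0 to 8 and 1 to 3 members under 0.05. The highest counts in the first 2 comparisons came without Gpr125-negative library 1: 747 and 335 genes called, Rspo2 the only member called, and 9 and 8 members under 0.05, where 16.6% and 14.5% of all genes were under it. Lgr5, Wnt5b, Dkk3, Fzd2, Sfrp2 and Rspo2 were among the members in both, and Porcn was in neither. Without TEB-distal library 1, Fzd9 and Rspo1 were no longer under 0.05 in any comparison. With the replicate number as a block, 1, 0 and 2 members were under 0.05 and 0 genes were called; same-numbered libraries deviated with correlations of -0.03, 0.19 and -0.005, so the numbers were not taken to pair the libraries. Of 249 alternative values of the 21 log2 fold changes followed, 0 changed sign and 6, all from DESeq2, passed the threshold (Porcn, Fzd9 and Rspo1). The fold changes followed had an unadjusted edgeR p under 0.05 or groups that did not overlap, which leaves little room for a reversal. That 0 changed sign was thus largely fixed by this choice. The cause of the changes between settings was not tested.

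With 2 libraries per group, differences of the size seen for most members were within the spread between libraries. Little can be read from genes at a few counts, such as Fzd10, Lef1 and Wnt1, whose highest counts in any library were 26, 24 and 14. The libraries labelled Gpr125-negative name no region, so region and sort cannot be told apart in comparisons with them.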
